A study of Mus musculus with 8 samples.

Results

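The cytosolic ribosomal proteins are the protein subunits of the ribosome that works outside mitochondria, and their genes carry symbols starting with Rpl (large subunit) or Rps (small subunit). They were chosen by symbol alone from the array files, leaving out the Rps6k kinases, which gave 84 genes with 193 probes among 55681 different probes. Of the 84 genes, 81 could be tested, beside 23914 genes tested in all. The study set 4 arrays of liver treated with a LeXis-expressing adenovirus (AdLeXis; LeXis is a lncRNA) beside 4 arrays of liver treated with a virus for green fluorescent protein (AdGFP). All the mice were bl6, 12 weeks old and fed chow, and RNA was taken on day 6; both groups carried a virus, so no uninfected liver was compared. Titles, tag and design text give AdLeXis and AdGFP as the groups, but the protocol for the treatment speaks instead of a control vector and of one against Raly; the tag was followed here. Whether every array is of its own mouse is not stated, so the p-values reflect variation among arrays that could be technical.

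A ribosome joins a small subunit, which reads the mRNA, to a large subunit, which forms the peptide bond, and each ribosomal protein is normally needed in a fixed ratio to the others. Mammalian ribosomal protein mRNAs start with a pyrimidine tract, the 5′ TOP motif, through which mTOR signalling controls mainly how well they are translated rather than how much mRNA there is. In the liver these mRNAs are among the most abundant, and many of the genes have processed copies elsewhere in the genome that a short probe may also detect.

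The arrays of the groups differed in brightness. The 75th percentile of the processed intensity was 381 to 448 on AdLeXis arrays and 220 to 297 on AdGFP arrays, and it was subtracted on the log2 scale. All 8 arrays were on 1 slide and in 1 scan, with AdLeXis in row 2 and AdGFP in row 1 of the slide, so row and group cannot be told apart. No spot was saturated (0 on each array). Hepatocyte markers were bright in both groups, with a summed log2 signal of 20.58 to 20.77 on AdLeXis arrays and 21.10 to 21.20 on AdGFP arrays. Of the 11 hepatocyte markers tested, 7 were lower in AdLeXis, as were 11 of the 12 markers of T and natural killer cells (summed log2 signal 13.18 to 13.31 on AdLeXis arrays, 14.15 to 14.24 on AdGFP arrays) and 4 of 10 macrophage markers (15.53 to 15.83 on AdLeXis arrays, 15.77 to 16.23 on AdGFP arrays). Of the other marker lists, 2 of 8 stellate cell and fibroblast markers and 1 of 6 B cell markers were lower. None of the 6 endothelial or 5 erythroid markers was called, with median differences of 0.02 and 0.06. Of all genes tested, 8.78% were lower. Among genes other than the ribosomal protein genes, the share called lower was 25.1% at a mean log2 signal of 16 to 17. It was 66% at 17 to 18 and 100% at 18 to 19. How far brightness enters the marker counts was not tested. In whole liver RNA, fewer cells of a type and less RNA per cell cannot be told apart, and the part of these markers in the ribosomal protein results was not tested.

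Ribosomal protein mRNAs differed little between AdLeXis and AdGFP livers. Of the 81 genes tested, 5 were lower in AdLeXis (6.17%) and 0 were higher, and 76 were not called, at a limma adjusted p under 0.05 over all genes. Over all genes, 17.5% were called, 8.72% higher and 8.78% lower. Without adjustment for the number of genes, 0 ribosomal protein genes were higher and 14 lower at p under 0.05, against 16.1% higher and 16% lower of all genes. The median log2 difference, AdLeXis minus AdGFP, was -0.10 for ribosomal protein genes and -0.0023 for all genes; quantile scaling (0.05), cyclic loess scaling (0.0020) and normexp background with quantile scaling (0.01) turned the first of these positive. The differences ran from -0.42 (0.747-fold, Rpl13) to 0.18 (1.13-fold, Rps27l), with 73 below 0 and 8 above.

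The 4 AdLeXis arrays lay wholly on one side of the 4 AdGFP arrays for 20 ribosomal protein genes, in each case below. That is 24.7% of the members, and the share over all genes was 24.7%. The median of the 81 genes on each array was 15.84, 15.83, 15.76 and 15.73 in AdLeXis, against 15.87, 15.996, 15.89 and 15.93 in AdGFP. Every AdLeXis array was below every AdGFP array under this scaling. The 95% interval of the difference stayed within 1.5-fold either way for 78 of the 81 genes, against 54.4% of all genes. The exceptions were Rpl13, Rps4x and Rps4y2. These shares reflect precision as well as the size of the differences. The median SE was 0.08 for the 81 genes and 0.13 for all genes.

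**Figure D1:**
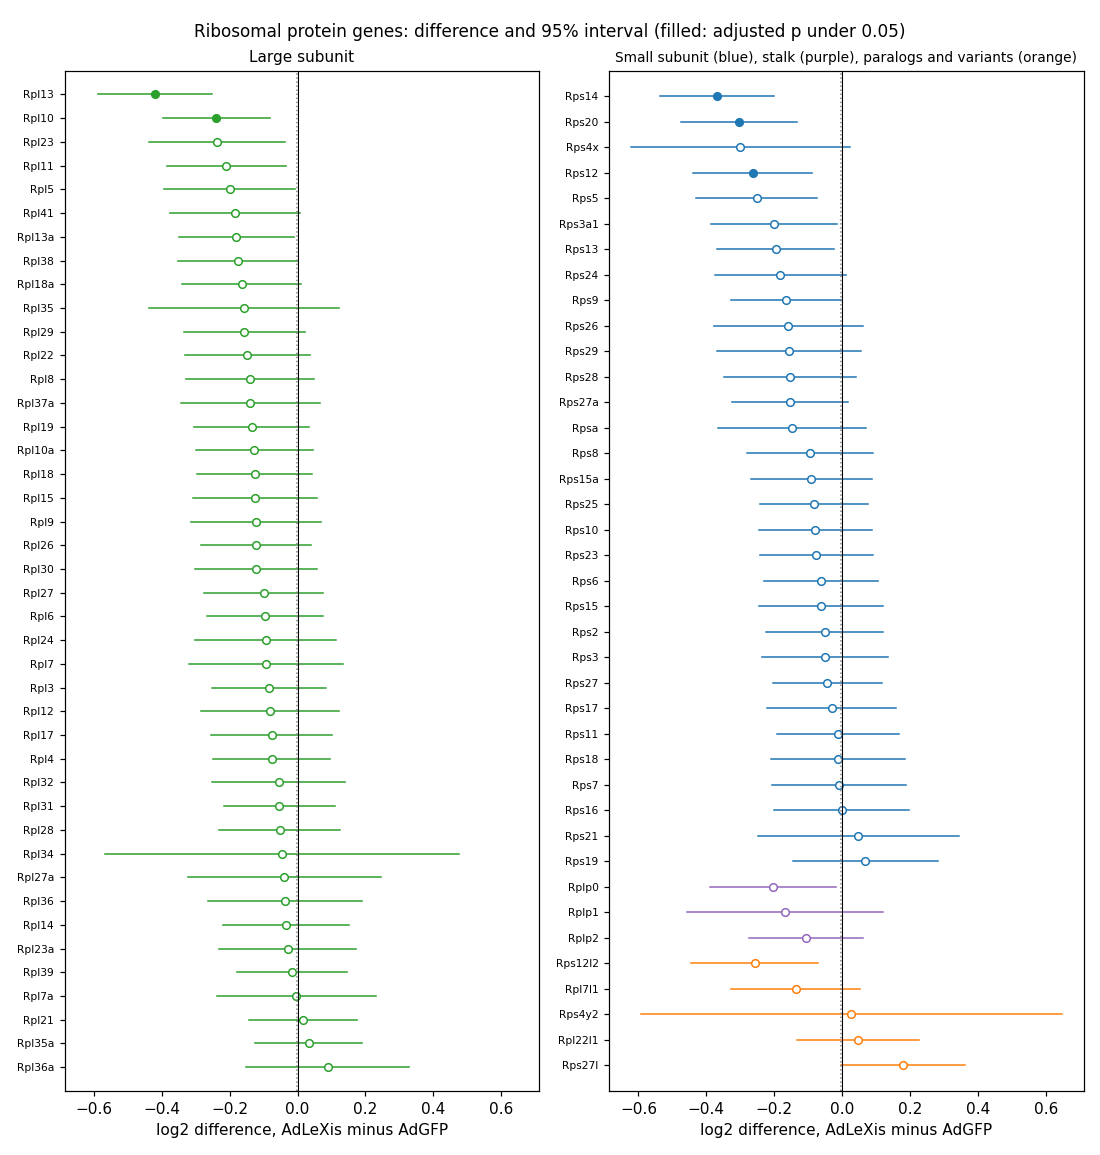
Log2 difference (AdLeXis minus AdGFP, x axis) with its 95% interval for each of the 81 ribosomal protein genes, grouped by role; filled points passed an adjusted p of 0.05 and the dotted line is the median of all genes. The 5 filled points lie left of 0, 73 of the 81 points do so, and Rps27l is farthest to the right at 0.18.

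By role, the medians of small and large subunit genes were close. Of the 31 small subunit genes 3 were lower (median -0.09), of the 42 large subunit genes 2 were lower (median -0.11), and none of the 3 stalk genes passed (0 higher, 0 lower; median -0.17). Of the 8 paralogs and variants 5 could be tested, with 0 called and a median of 0.03.

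The 5 genes that fell were Rpl13, Rps14, Rps20, Rps12 and Rpl10. Rpl13 encodes a large subunit protein, and its brightest probe gave a log2 signal of 16.13, 16.04, 16.06 and 15.97 on AdLeXis arrays, against 16.47, 16.51, 16.50 and 16.41 on AdGFP arrays. All AdLeXis arrays were below all AdGFP arrays, and the difference was -0.42 (SE 0.07, limma adjusted p = 0.0075, n = 4 each). Rps14, a small subunit protein near the mRNA exit, stood at 16.94, 16.96, 16.90 and 16.98 in AdLeXis, against 17.22, 17.29, 17.36 and 17.38 in AdGFP, again without overlap. Its difference was -0.37 (SE 0.07, limma adjusted p = 0.012, n = 4 each).

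Rps20, also of the small subunit, gave 16.89, 16.75, 16.73 and 16.73 in AdLeXis and 17.12, 17.05, 17.11 and 17.04 in AdGFP. The groups did not overlap, and the difference was -0.30 (SE 0.07, limma adjusted p = 0.027, n = 4 each). Rps12, of the small subunit, gave 16.33, 16.33, 16.23 and 16.23 in AdLeXis and 16.57, 16.56, 16.43 and 16.62 in AdGFP. It too showed no overlap, with a difference of -0.26 (SE 0.08, limma adjusted p = 0.048, n = 4 each). Rpl10 joins the large subunit late in its assembly and was the brightest of the 81 genes. It read 17.28, 17.23, 17.28 and 17.27 in AdLeXis and 17.45, 17.49, 17.51 and 17.57 in AdGFP, without overlap, a difference of -0.24 (SE 0.07, limma adjusted p = 0.047, n = 4 each). The calls of Rps20, Rps12 and Rpl10 did not hold in every fit with 1 array left out. Such fits have fewer arrays. The share of all genes called was also lower in them, though hardly so without AdLeXis replicate 1. Whether the lost calls reflect a particular array or the smaller number of arrays was not tested. With 1 array left out, the lower genes were Rpl13 and Rps14 (2 genes) without AdLeXis replicate 2, 3 or 4 or AdGFP replicate 1, 2 or 3. They were Rpl13, Rps14 and Rps20 (3 genes) without AdGFP replicate 4. They were Rpl13, Rps14, Rps20 and Rps12l2 (4 genes) without AdLeXis replicate 1, Rps12l2 not being called with all arrays. Rpl13 and Rps14 were thus called lower in all 8 of these fits, and Rps12 and Rpl10 in none of them. Rpl13 was not called with its probes averaged (-0.22) or with its dimmest kept probe (-0.06). Quantile scaling turned Rps20 (0.0058) and Rpl10 (0.10) to positive, and normexp with quantile scaling turned Rps14 (0.06) and Rps20 (0.07).

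**Figure D2:**
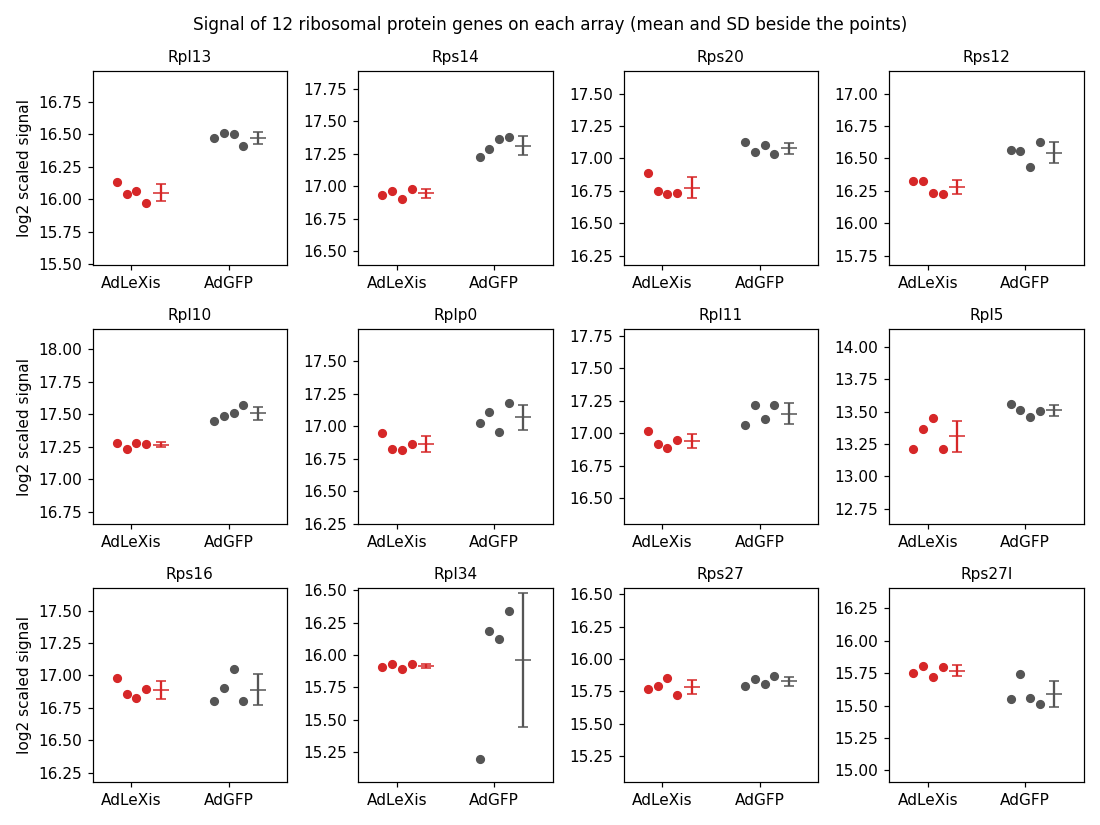
Log2 scaled signal (y axis, 1.5 units in every panel) on each of the 4 AdLeXis arrays (red) and 4 AdGFP arrays (grey) for 12 ribosomal protein genes, with the mean and SD beside the points. The AdLeXis points of Rpl13, Rps14, Rps20, Rps12 and Rpl10 all lie below the AdGFP points, those of Rps16 and Rps27 overlap them, and 1 AdGFP array of Rpl34 lies at 15.20.

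Probes of Rpl13 and Rpl10 are shown from among the called genes. A probe is termed coding here if it has a reading frame without a stop codon, and no transcript was aligned. Whether copies elsewhere in the genome add to the signal of these probes was not tested. All are 60 bases, 5′ to 3′ as in the array files, with mm9 positions from those files. The Rpl13 probe that was called is placed at chr8:125627816-125628964, an interval longer than the probe. The other Rpl13 coding probes, whose differences were -0.21 and -0.19, are placed on chromosome 4, whereas the gene table places the gene on chromosome 8. Another kept Rpl13 probe, on chromosome 8 and not shown, differed by -0.06 (limma adjusted p = 0.72 over all probes), and none of these 3 other probes was called. The Rpl10 probe lies at chrX:71518307-71518366.
Rpl13, called: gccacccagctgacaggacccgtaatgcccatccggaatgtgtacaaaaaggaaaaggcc
Rpl13, chromosome 4 (52254267 to 52254326): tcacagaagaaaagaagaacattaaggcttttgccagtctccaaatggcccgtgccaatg
Rpl13, chromosome 4 (10775828 to 10775887): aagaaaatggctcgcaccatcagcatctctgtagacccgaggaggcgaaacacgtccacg
Rpl10: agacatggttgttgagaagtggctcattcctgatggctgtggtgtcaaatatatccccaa

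Among the other genes of the large subunit and the stalk, no call was made. Rplp0, the stalk protein that anchors Rplp1 and Rplp2 to the large subunit, had 16.95, 16.82, 16.81 and 16.87 in AdLeXis and 17.02, 17.11, 16.95 and 17.18 in AdGFP. The lowest AdGFP array exceeded the highest AdLeXis array, but the difference of -0.20 (SE 0.08, n = 4 each) missed the threshold (limma adjusted p = 0.12). Rplp1 differed by -0.17 and Rplp2 by -0.11 (limma adjusted p = 0.41 and 0.36). Rpl5 and Rpl11 form the 5S particle, which binds the p53 regulator Mdm2 when ribosome assembly is disturbed. Their differences were -0.20 and -0.21 (SE 0.08 each, limma adjusted p = 0.14 and 0.095), and neither gene's groups overlapped. Normexp with quantile scaling called Rpl11 higher (0.47) and Rpl5 lower (-0.34). Rps27a, a small subunit gene made as a ubiquitin fusion, differed by -0.15 (limma adjusted p = 0.20). Rpl41, the second brightest, differed by -0.19 (limma adjusted p = 0.17).

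The genes nearest to no change among those detected on all 8 arrays were Rps16, Rpl7a and Rps7. Rps16, a small subunit protein, gave 16.98, 16.85, 16.82 and 16.89 in AdLeXis and 16.80, 16.90, 17.05 and 16.80 in AdGFP. The arrays of the groups were interleaved, and the difference was -0.0012 (95% interval -0.20 to 0.20). Rpl7a differed by -0.0041 (95% interval -0.24 to 0.23) and Rps7 by -0.01 (95% interval -0.21 to 0.19). Quantile scaling called Rps16 higher in AdLeXis (0.29), as did normexp with quantile scaling (0.41).

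Replicates were tight: the median SD over the 81 genes was 0.07 in AdLeXis and 0.08 in AdGFP. The SD exceeded 0.2 for 1 gene in AdLeXis (Rps4y2) and for 7 genes in AdGFP. The widest spread was that of Rpl34, with 15.91, 15.93, 15.89 and 15.93 in AdLeXis and 15.20, 16.19, 16.12 and 16.34 in AdGFP. The low array was AdGFP replicate 1, and the difference was -0.05 (SE 0.23, limma adjusted p = 0.92). The 2 Rpl34 coding probes are shown since 1 array set this spread, on the brighter probe only. The other probe gave 15.58, 15.59, 15.62 and 15.42 on the AdGFP arrays (SD 0.09). Both lie on the reverse strand of chromosome 3, at 130429830 to 130431677 and 130431671 to 130431730.
Rpl34, brighter: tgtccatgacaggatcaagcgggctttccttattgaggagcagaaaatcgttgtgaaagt
Rpl34, other: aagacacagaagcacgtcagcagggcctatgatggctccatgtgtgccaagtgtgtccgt

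The ribosomal protein genes lie at the bright end of the arrays. Of the 81, 75 had a mean log2 signal over 14, against 6.34% of all genes. Other genes of that brightness were also lower in AdLeXis. Between 14 and 15, the median difference was -0.01 for 11 ribosomal protein genes and -0.03 for 625 other genes. Between 15 and 16, the median difference was -0.08 for 29 ribosomal protein genes and -0.09 for 450 other genes. Between 16 and 17 it was -0.15 for 31 ribosomal protein genes and -0.17 for 239 other genes. Of those other genes 25.1% were called lower, and of the 31 ribosomal protein genes 3 were. Between 17 and 18 it was -0.22 for 4 ribosomal protein genes and -0.38 for 100 other genes. There 66% of the other genes were called lower, and 2 of the 4 ribosomal protein genes. Rpl13, at 16.26, lay below both medians of its bin. The difference between the 2 sets was not tested.

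**Figure D3:**
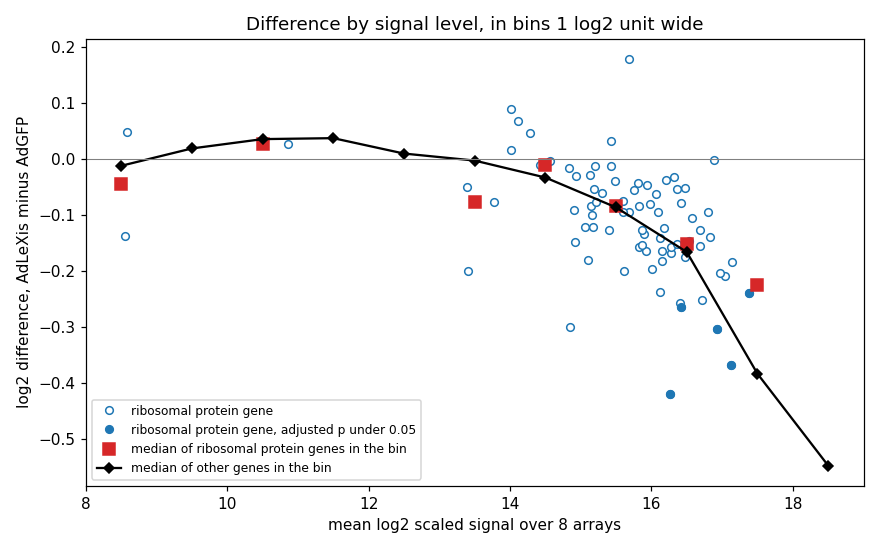
Log2 difference (y axis) against mean log2 signal (x axis) for the 81 ribosomal protein genes (circles), with the median of the ribosomal protein genes (red squares) and of other genes (black diamonds) in bins of 1 log2 unit. Both medians fall with brightness from 14 upward, to -0.22 and -0.38 between 17 and 18.

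The sign of the median depended on the scaling. Scaling by the 75th percentile, by the median or by spike-in controls gave ribosomal protein medians of -0.10, -0.18 and -0.01. The medians of all genes were -0.0023, -0.08 and 0.09, so each scaling left the ribosomal protein median 0.10 below. Each of these scalings shifts all genes of an array by the same amount, so this gap is nearly the same by construction. Quantile scaling left the ribosomal protein median 0.06 above that of all genes, and cyclic loess 0.00087 above. Without scaling, 78 of 81 were called higher, beside 19000 of all 23914 genes, with medians of 0.64 for ribosomal protein genes and 0.74 for all genes. Spike-in scaling was chosen after seeing the data and called 0 ribosomal protein genes in either direction, beside 8.30% of all genes (1380 higher and 604 lower).

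**Figure D4:**
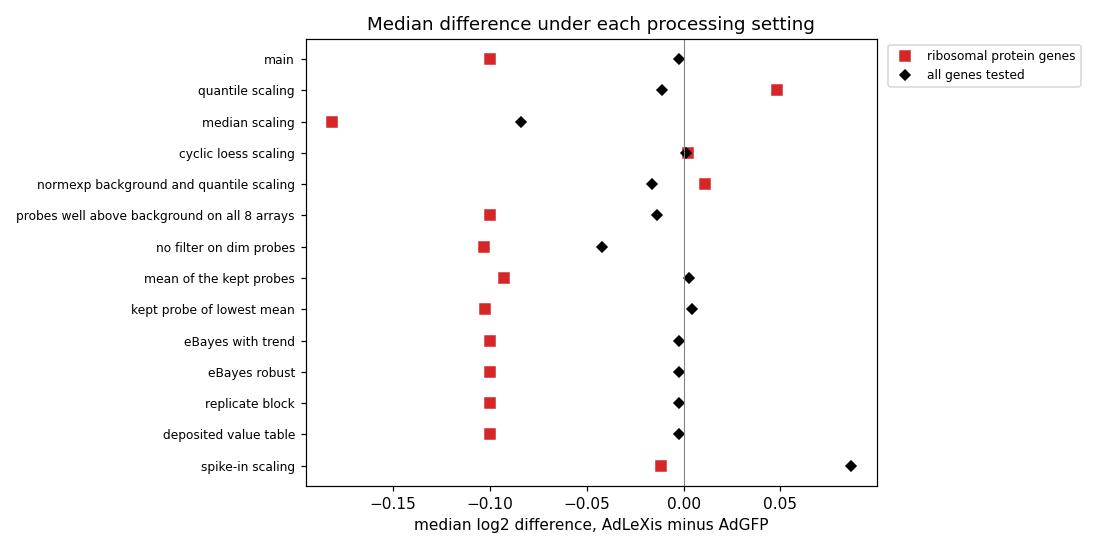
Median log2 difference (x axis) of ribosomal protein genes (red squares) and of all genes tested (black diamonds) under the main setting and 13 of the alternatives (y axis); the setting without scaling is left out because its medians are 0.64 and 0.74. The red squares lie left of the black diamonds except under quantile scaling, cyclic loess and normexp with quantile scaling.

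Paralogs and variants were set beside the gene they resemble. Rps27l, a p53-induced paralog of Rps27, had the highest difference of all 81 genes. It gave 15.75, 15.80, 15.72 and 15.80 in AdLeXis and 15.55, 15.74, 15.55 and 15.51 in AdGFP. The groups overlapped by 1 AdGFP array, and the difference of 0.18 (SE 0.08, n = 4 each) missed the threshold (limma adjusted p = 0.17). It was called higher under 3 of the 22 alternatives: quantile scaling, cyclic loess scaling and no scaling. The last of these called 78 of the 81 genes higher. Rps27 itself differed by -0.04, so the difference between the 2 was 0.22 (exact permutation test over 70 relabellings, two-sided, p = 0.057; Benjamini-Hochberg adjusted over 5 pairs 0.21). The probes of Rps27 are placed on chromosome 9, whereas the gene table places the gene on chromosome 3.

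Rpl22l1, a paralog of Rpl22, differed by 0.05 and Rpl22 by -0.15, a difference between them of 0.19 (exact permutation test, two-sided, p = 0.086, adjusted 0.21). Rpl7l1, a dim paralog of Rpl7, differed by -0.14 and Rpl7 by -0.09 (exact permutation test, p = 0.66). Rps4y2 differed by 0.03 with an SD of 0.47 in AdLeXis and 0.41 in AdGFP, and Rps4x, the X-linked gene it resembles, by -0.30 (exact permutation test, p = 0.43). Rps12l2 differed by -0.26 and Rps12 by -0.26 (exact permutation test, p = 0.94). The smallest p that 4 against 4 arrays allow is 0.029. None of the 5 pairs passed 0.05 after adjustment. Rpl10l, Rpl39l and Rpl3l were not well above background on enough arrays to be tested: on the best probe, 2 of the 8 arrays for Rpl10l, 0 for Rpl39l and 3 for Rpl3l, where the 3 were AdLeXis arrays.

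A coding probe of Rps12 and one of Rps12l2 are shown because they overlap in sequence, so that signal of one gene may reach the other's probe. They are not the probes behind the values above, and gave differences of -0.21 (Rps12) and -0.13 (Rps12l2). They align over 56 bases with 3 mismatches, at C6T, G28T and C52T, counting from 1 at the 5′ end of the Rps12 probe; the mismatched bases are in capitals.
Rps12: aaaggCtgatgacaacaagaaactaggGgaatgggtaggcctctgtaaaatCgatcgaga
Rps12l2: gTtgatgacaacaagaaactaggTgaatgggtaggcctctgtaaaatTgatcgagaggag

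Several probes covered most genes. For 62 genes with at least 2 kept probes, the median gap between the highest and lowest difference was 0.08, and it exceeded 0.3 for 10 genes. In the fit over all probes, 3.19% of the 188 kept ribosomal protein probes were called (5 lower, 1 higher), beside 14.9% of all probes. The lower probes belong to Rpl13, Rps14, Rps20, Rpl10 and Rpl39. In this fit no Rps12 probe was called. The called Rpl10 probe (-0.29) was not its brightest, which missed the threshold (limma adjusted p = 0.060 over all probes). For 0 genes were probes called in opposite directions. The 1 probe called higher belongs to Rpl23, whose 3 probes gave -0.24, -0.14 and 0.31, the last on the dimmest. The called Rpl39 probe was a dim one at -0.33, while its brightest gave -0.02. Of all member probes, 11 from 5 genes are placed on another chromosome than their gene.

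**Figure D5:**
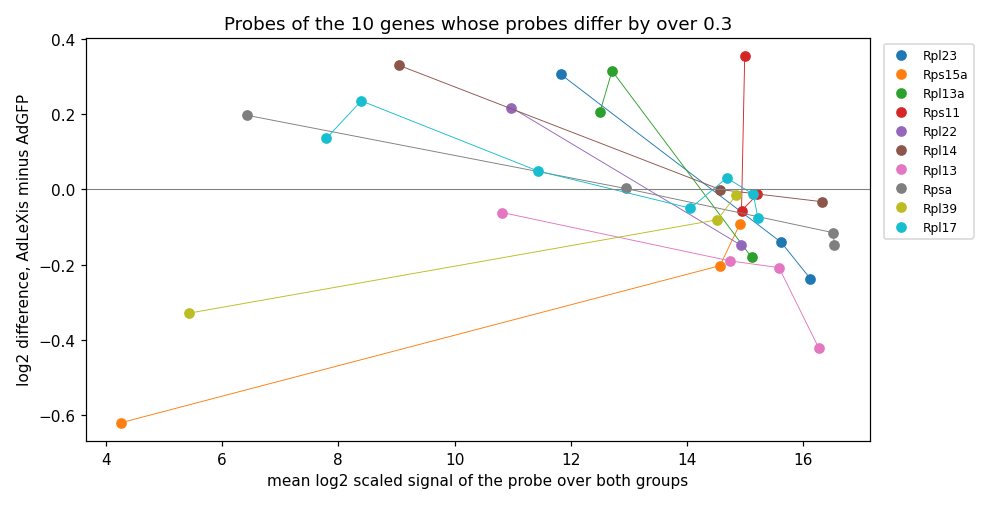
Log2 difference (y axis) against mean log2 signal (x axis) for the kept probes of the 10 genes whose probes differ by over 0.3, with probes of a gene joined by a line. The Rpl23 probes run from 0.31 at the dim end to -0.24 at the bright end, and those of Rps15a from -0.62 at the dim end to -0.09 at the bright end.

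Genes that act with the ribosomal proteins moved in few cases. Of 4 other ribosome components, 0 were called; Rack1, a scaffold on the small subunit, was lowest at -0.20 (limma adjusted p = 0.074), and Rpl36al and Fau gave -0.15 and -0.07. Of 14 genes of ribosomal RNA transcription 1 was higher and 1 lower: Polr1a, the largest subunit of RNA polymerase I, rose by 0.32 (SE 0.07), and Ubtf, which activates rRNA genes, fell by 0.73 (SE 0.14). The Ubtf call does not extend to its dimmest kept probe (0.44). Ubtf was bright, with a mean log2 signal of 16.95 in AdLeXis and 17.68 in AdGFP. Of other genes between 17 and 18, 66% were called lower, with a median of -0.38. The part of brightness in the Ubtf difference was not tested. Of 42 small subunit assembly genes 3 were lower (Ltv1, -0.39, Dkc1, -0.43, and Pno1, -0.25), and of 36 large subunit assembly genes 1 was lower (Ddx18, -0.46) and 2 higher (Nop16, 0.61, and Lsg1, 0.29).

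Of 37 initiation factors 3 were higher (Eif2b1, 0.38, Eif3l, 0.29, and Eif3k, 0.23) and 1 lower (Eif4e2, -0.39), and of 13 elongation and release factors 1 was higher (Gspt2, 1.098). Of 22 genes of growth control 2 were higher: Mlst8 (0.47), which is shared by both mTOR complexes, and Mtor itself (0.38). The median differences of these lists ran from -0.11 for the other ribosome components to 0.13 for growth control. These counts are a description beside the 17.5% called of all genes, and nothing is read from them about a list.

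The promoters of the members were searched for pyrimidine motifs. The TOP motif itself starts at the first transcribed base, so a match elsewhere in the window does not measure it. Of the 84 genes, 62 were in the RefSeq promoter table (GRCm38.p6). The window ran from 50 bases before to 50 after the start, on the strand that reads like the mRNA. CTTTCC was found there in 30.6% of these 62 genes and in 5.43% of all 27025 genes of the table. CTCTTTC was found in 19.4% and 1.62%. TTTCC, a part of the first motif, was found in 50% and 16.6%. On both strands, CCGGAAG, the core of ETS factor sites, was found in 21.0% and 5.98%. These are matches of letters, not sites. The windows below run from 30 bases before to 20 after the start, with the 3 pyrimidine motifs in capitals. They are shown for 3 genes that fell, for 2 nearest to no change and for Rps27 with its paralog.
Rpl13 (chr8:123102320-123102369, plus strand): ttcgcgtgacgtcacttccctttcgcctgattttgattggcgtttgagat
Rpl10 (chrX:74270786-74270835, plus strand): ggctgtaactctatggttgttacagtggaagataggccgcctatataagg
Rps12 (chr10:23787190-23787239, minus strand): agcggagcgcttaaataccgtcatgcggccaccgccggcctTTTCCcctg
Rps16 (chr7:28350659-28350708, plus strand): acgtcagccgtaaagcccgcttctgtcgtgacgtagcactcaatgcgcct
Rpl7a (chr2:26910777-26910826, plus strand): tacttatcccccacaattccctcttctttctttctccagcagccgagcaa
Rps27 (chr3:90213629-90213678, minus strand): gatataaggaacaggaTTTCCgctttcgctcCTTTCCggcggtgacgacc
Rps27l (chr9:66946056-66946105, plus strand): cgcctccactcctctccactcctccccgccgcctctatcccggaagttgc
In these windows only Rps12 and Rps27 hold any of the 3 pyrimidine motifs. The capitals do not show whether a gene has a TOP motif: Rpl7a, without capitals, has a run of pyrimidines across its start. No link between a motif and a difference was tested.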

How the data were processed

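Total RNA of mouse liver was measured on 1-colour Agilent arrays. The deposited scanner files hold spot intensity, which per the file headers the authors' scanner software (Feature Extraction 11.5.1.1; the submitters' processing notes list 11.5.1.11) background-subtracted and detrended within each array, with probe positions of build mm9. The deposited value table holds the same intensity. Here log2 intensity was scaled by each array's 75th percentile. Control and outlier spots were left out. A probe was kept if well above background on at least 4 of 8 arrays, with a measurement on at least 2 arrays of each group, and a gene was its brightest kept probe. Groups were compared with limma 3.58.1 in R 4.3.3 (lmFit, eBayes, two-sided), with Benjamini-Hochberg adjustment over 23914 genes and a threshold of 0.05; the fit was tested on simulated data. The number of arrays limits precision. Symbols of members are those of the files; others were named through RefSeq (GRCm38.p6, names only). Named genes were the called members, the brightest, the stalk, 5S and ubiquitin fusion genes, those nearest to no change, the paralogs with their parent genes, and called genes of companion lists; Rpl23, Rpl34 and Rpl39 and the genes in the spread plot were chosen after their values were seen. A gene that the rule selects is counted in its list but not reported here by name. Members, lists and tests were chosen with earlier results of these data known. Alternatives covered scaling, background, filter, probe choice, eBayes options, a replicate block, the value table and each array left out.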

Additional observations from a re-analysis of the deposited data

Results flagged for a closer look

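In 162 groups of 4 arrays (81 genes, both treatments), 9 held 1 array far from the other arrays of its group, by Dixon's test at the 95% level; chance alone flags about 5% of groups. In AdLeXis, replicate 1 was high for Rps20 (16.89), Rps28 (15.94) and Rpl8 (16.15) and low for Rpl7l1 (8.34). AdLeXis replicate 4 was low for Rps9 (15.735) and Rpl32 (15.68) and high for Rps15a (14.94). In AdGFP, replicate 2 was high for Rpl4 (13.90) and replicate 4 low for Rps21 (8.17). Rps21 had the widest gap of these, 0.48, and the other 8 gaps were from 0.05 to 0.18 on the log2 scale. Of the 5 genes called lower, 1 is among them (Rps20), and its AdLeXis replicate 1 lay nearer to AdGFP than the other AdLeXis arrays.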

How the results depend on the processing

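Of 22 alternatives, 17 called 0 ribosomal protein genes higher and 18 kept the median difference below 0. These counts are not of independent checks. The eBayes options, the replicate block and the value table leave the median at -0.10 by construction. Each fit with 1 array left out keeps the main scaling. Lower genes numbered 1 and higher genes 2 under quantile scaling (median 0.048), 1 and 1 under cyclic loess (median 0.0020), 2 and 8 under normexp with quantile scaling (median 0.011), and 0 and 78 without scaling (median 0.64). Lower genes also numbered 6 under median scaling, 6 with probes well above background on all 8 arrays, 4 with robust eBayes, 2 without a filter on dim probes, 3 with probes averaged, 1 (and 1 higher) with the dimmest kept probe, 9 with a trend in eBayes, 0 with spike-in scaling (median -0.011), chosen after seeing the data, and 2 to 4 with 1 array left out; the median was -0.18 under median scaling. Same-numbered samples deviated together in 1 of 4 pairs at a correlation over 0.1 (0.12, the others 0.013, 0.066 and 0.00083). AdLeXis replicate 1 and AdGFP replicate 4 also did (0.1003). Same-numbered arrays share a column of the slide. With so few arrays these correlations cannot exclude a pairing by number, and the main fit used none. The replicate block lowered the count to 2 (Rpl13 and Rps14). The direction turned, with a call on at least one side, for the named genes that follow; without scaling, the greater brightness of the AdLeXis arrays enters every gene's difference by construction. With the dimmest kept probe these were Rpl23 (0.31), Eif4e2 (0.055) and Ubtf (0.44). Under normexp with quantile scaling they were Rps14 (0.064), Rps20 (0.071), Rpl11 (0.47), Rps16 (0.41) and Fau (0.43). Under quantile scaling they were Rps20 (0.0058), Rpl10 (0.10), Rps16 (0.29) and Fau (0.30). Without scaling they were Rpl13 (0.32), Rps14 (0.38), Rps20 (0.44), Rps12 (0.48), Rps12l2 (0.49), Rpl10 (0.51), Rpl23 (0.51), Rpl11 (0.53), Rplp0 (0.54), Rpl5 (0.54), Rpl41 (0.56), Rplp1 (0.58), Rps9 (0.58), Rps28 (0.59), Rps27a (0.59), Rpl22 (0.60), Rpl8 (0.60), Rpl7l1 (0.61), Rplp2 (0.64), Rpl7 (0.65), Rps15a (0.65), Rpl4 (0.67), Rpl32 (0.69), Rpl34 (0.70), Rps27 (0.70), Rps7 (0.73), Rpl7a (0.74), Rps16 (0.74), Ddx18 (0.29), Dkc1 (0.31), Eif4e2 (0.36), Fau (0.67), Ltv1 (0.35), Pno1 (0.50), Rack1 (0.54), Rpl36al (0.59) and Ubtf (0.01). Why the nonlinear scalings turned a sign was not tested. Over all 81 genes, 1628 of 1782 gene and setting pairs had no change of call, 49 lost a call, 21 gained one and 84 turned.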
